A study of Mus musculus with 11 samples.

Results

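The phagocyte NADPH oxidase is represented here by 5 genes, chosen by name from the 16894 genes of a mouse microglia RNA-seq table: Cybb, Cyba, Ncf1, Ncf4 and Rac2. All 5 were found by Entrez identifier, and all 5 passed the filter on low counts in each comparison. Microglia are the resident macrophages of the brain. The libraries were 3 of primary microglia kept in culture (PMG), 4 of resident microglia (Res) and 4 of transplanted microglia (TP) collected 3 months after transplantation, the last pair of groups purified by fluorescence-activated cell sorting. The study set transplanted cells beside cultured and resident ones to ask whether they come to express what undisturbed brain microglia express. All 11 libraries carry the genotype label Cx3cr1-GFP, a green reporter at a microglial chemokine receptor gene. The labels give no age, sex or strain. They attach to every library a protocol in which mice ate chow with 600 mg/kg PLX3397, a Csf1r inhibitor that depletes microglia, over 3 cycles before transplantation. They do not say which animals received it, nor whether the transplanted cells were taken from the cultured ones. Separate animals or cultures are not stated either, so p-values measure the spread between these libraries, which may be technical.

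The oxidase moves electrons from cytosolic NADPH across a membrane to oxygen and so makes superoxide. Its catalytic core, gp91phox (Cybb), pairs in the membrane with p22phox (Cyba). The organizer p47phox (Ncf1) and p40phox (Ncf4) wait in the cytosol and join the core on stimulation, together with the small GTPase Rac, of which Rac2 is the blood-cell form. Loss of gp91phox, p22phox or p47phox in people gives chronic granulomatous disease, and in the brain the complex is known as a main source of microglial superoxide.

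On GRCm38.p6 the genes lie on 4 chromosomes. Cybb (Entrez 13058) spans 9435252 to 9487766 on chromosome X, minus strand, with 13 exons in its principal GENCODE transcript. Cyba (Entrez 13057) spans 122424771 to 122432940 on chromosome 8, minus strand, with 6 exons. Ncf1 (Entrez 17969) spans 134220053 to 134229628 on chromosome 5, minus strand, with 11 exons. Ncf4 (Entrez 17972, 78244164 to 78262582, plus strand, 10 exons) and Rac2 (Entrez 19354, 78559169 to 78572783, minus strand, 7 exons) share chromosome 15. A non-coding RNA gene overlaps Cybb (Gm33784) and another overlaps Ncf1 (LOC115490142). Neither has a row in the table, and strand-specific counting is not stated, so reads from either could have been counted to the oxidase gene.

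RefSeq promoter windows were found for Cybb, Cyba and Ncf1. Those of Cybb and Ncf1 are shown because the transcripts of these genes moved in opposite directions in culture. Each window runs from 250 bases before the start site to 30 bases from it, on the minus strand of GRCm38.p6 (chrX:9469295-9469574 for Cybb, chr5:134229596-134229875 for Ncf1). Capitals mark matches to GAGGAA, the core bound by the myeloid factor PU.1, and to a pair of GAAA sites with 2 bases of any kind between them, as bound by interferon regulatory factors (IRF), on either strand.
Cybb: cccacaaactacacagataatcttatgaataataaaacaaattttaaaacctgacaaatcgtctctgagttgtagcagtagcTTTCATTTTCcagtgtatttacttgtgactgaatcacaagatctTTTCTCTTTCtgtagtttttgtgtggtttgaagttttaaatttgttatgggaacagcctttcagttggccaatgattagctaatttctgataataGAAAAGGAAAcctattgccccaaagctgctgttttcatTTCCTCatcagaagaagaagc
Ncf1: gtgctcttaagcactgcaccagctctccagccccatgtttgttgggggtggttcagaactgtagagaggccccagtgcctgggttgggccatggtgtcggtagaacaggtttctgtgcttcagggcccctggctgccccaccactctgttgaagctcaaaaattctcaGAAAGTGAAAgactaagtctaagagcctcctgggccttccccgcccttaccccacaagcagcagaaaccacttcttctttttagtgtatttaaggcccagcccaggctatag
In the Cybb window GAGGAA occurs on the reverse strand at bases 9 to 14 after the start site, taken as base 0. Its 3 IRF matches begin at -168, -124 and -29. The RefSeq span of Cybb runs on upstream of this window to 9487766, so any start site there is not covered. The Ncf1 window holds 1 IRF match, from -82 to -73, and no GAGGAA, and the Cyba window holds neither motif. Of 32851 RefSeq promoter windows of this length, 26% hold GAGGAA and 3.28% hold the IRF pair, and a match is only a match of letters.

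The samples carried the markers of their label to different degrees. The microglia marker Tmem119 was at 5779 to 6450 CPM (counts scaled to library size with TMM factors) in resident libraries, 4873 to 6559 in transplanted and 8.95 to 13.5 in cultured libraries. Siglech, another such marker, was at 2516 to 2824, 1729 to 2245 and 0.442 to 0.912 CPM in the same order. Total expected counts were 18692721 to 19965631 in sorted and 26705034 to 28219696 in cultured libraries, so 3 counts, the limit that a count of 0 allows, equal at most 0.148 CPM.

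Cybb was the member that set the groups apart. Resident microglia held very little of it, transplanted microglia several times more, and cultured microglia the most. Its CPM values were 6.13, 13.3, 8.23 and 13.9 in resident replicates 1 to 4. Transplanted replicates 1 to 4 had 73.1, 24.2, 76.3 and 106 CPM, and cultured replicates 1 to 3 had 1033, 691 and 1009 CPM. No 2 groups overlapped, and the lowest transplanted library, replicate 2, still lay above the highest resident one. These values rest on 136 to 304 counts per resident library, 506 to 2205 per transplanted and 14053 to 21528 per cultured library. In bulk samples, fewer cells with the transcript and less transcript per cell cannot be told apart.

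Against resident cells, Cybb was 6.77-fold higher in transplanted cells (log2 fold change 2.76 ± 0.41 SE, edgeR quasi-likelihood adjusted p = 0.0016; 69.97 ± 33.97 against 10.4 ± 3.79 CPM, SD, n = 4 each). It was 89-fold higher in cultured cells (6.48 ± 0.33, adjusted p = 2.16e-07; 911 ± 191 CPM, n = 3). Transplanted cells stood 13-fold below cultured cells (-3.70 ± 0.41, adjusted p = 2.28e-05). Both comparisons with resident cells use the same 4 resident libraries. Over 17 alternatives of scaling, filter, model and left-out libraries, the difference between transplanted and resident cells ranged from 2.39 to 3.03 on the log2 scale, with adjusted p from 8.29e-07 to 0.00879.

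**Figure D1:**
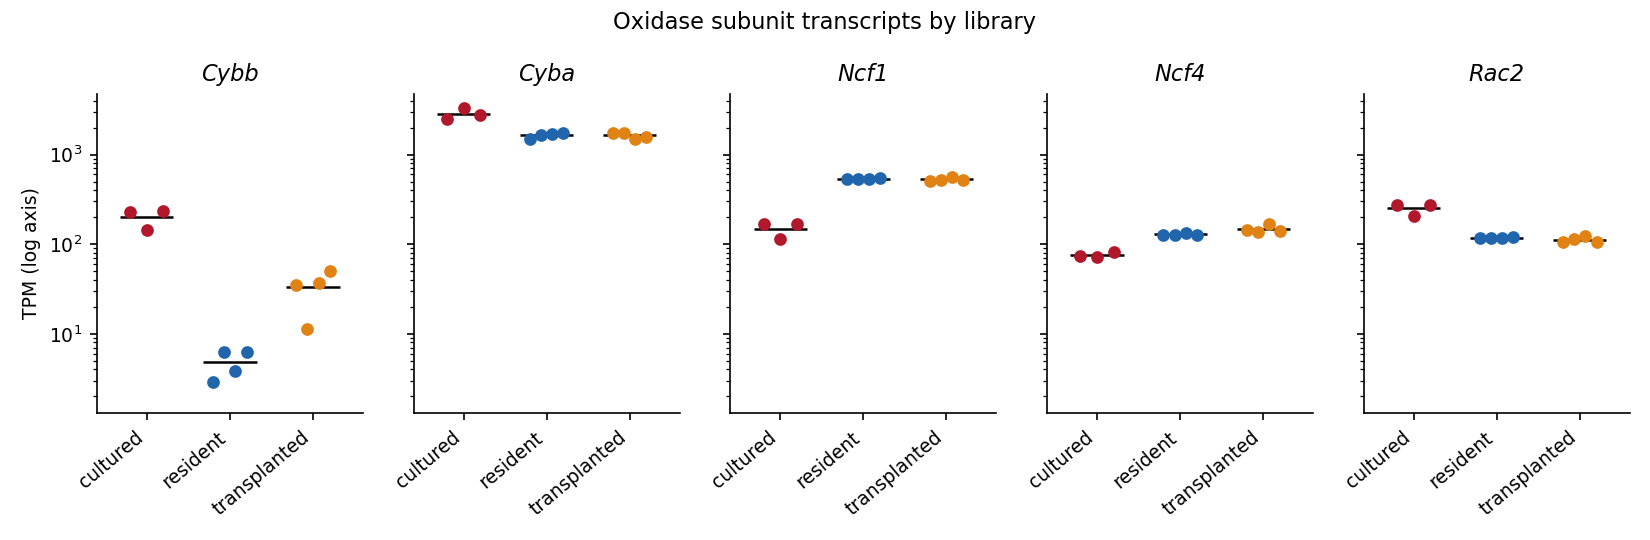
TPM (a level scaled for gene length and library, log axis) of the 5 genes in each library, with points for libraries in replicate order and a line for the group mean. Cybb runs from 2.91 to 6.31 TPM in resident, 11.2 to 50.6 in transplanted and 145 to 235 in cultured libraries, while transplanted and resident points overlap for Cyba, Ncf1 and Rac2.

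Between the sorted groups, summed markers of border-associated macrophages and monocytes were lower in transplanted libraries, though single genes differed. The 8 border-associated macrophage markers summed to 58.0 to 123 CPM in resident and 22.5 to 40.5 in transplanted libraries, and the 8 monocyte markers to 6.86 to 12.3 and 3.35 to 5.79 CPM. The monocyte sum followed Ccr2 (5.77 to 9.55 CPM in resident libraries, 0.906 to 2.06 CPM in transplanted ones), while Treml4 lay higher in every transplanted library (0.316 to 0.699 against 0.789 to 2.87 CPM, not called, adjusted p = 0.0746). Of the 8 border-associated genes, 7 were lower and Siglec1 was higher in transplanted cells (1.18, adjusted p = 0.0212). Among neutrophil markers, Mpo and Elane had 0 counts in both sorted groups. The neutrophil sum was 738 to 829 CPM in resident and 946 to 1158 in transplanted libraries, and Csf3r, a receptor gene, alone made up 734 to 825 and 943 to 1155 CPM of it. The sum of 8 lymphocyte markers spanned 18.2 to 27.3 CPM in resident cells and 1.06 to 1.77 CPM in transplanted cells, and Cd79b alone made up 17.5 to 26.2 and 0.241 to 0.479 CPM of it. The other 7 reached at most 0.634 CPM in a sorted library. In culture, border-associated markers summed to 3817 to 4103 CPM and monocyte markers to 239 to 323 CPM. Against resident cells, 4 of 8 border-associated genes were called higher and 3 lower. Of 7 monocyte genes tested, 5 were higher and 1 lower (37.9% and 37.2% of all genes). Border-associated Cd163 had 0.491 to 1.58 CPM in cultured and 4.12 to 8.43 CPM in resident libraries, and Cd209f had no count in culture. The part of other cell types in the Cybb levels of any group was not tested.

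Cybb is X-linked, and the libraries were unequal in Y-linked transcripts. The Y-linked gene Ddx3y was at 44.9, 31.2, 117 and 116 CPM in transplanted replicates 1 to 4, and at 100 to 108 CPM in resident replicates 1 to 3 but 0.137 CPM in resident replicate 4. Transplanted replicate 2 had the lowest Ddx3y and the lowest Cybb (24.2 CPM) of its group, but replicates 1 and 3, unequal in Ddx3y, were close in Cybb (73.1 and 76.3 CPM). Resident replicate 4, with almost no Ddx3y, had the highest resident Cybb (13.9 CPM). The part of these differences in the Cybb result was not tested. Without resident replicate 4 the transplanted minus resident difference in Cybb was 2.92, and without transplanted replicate 2 it was 3.03, both called.

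Cyba, the membrane partner, was higher in culture but was not called between transplanted and resident cells. Its CPM values were 370, 414, 419 and 438 in the resident libraries. They were 423, 441, 355 and 372 in the transplanted libraries, within much the same range, and 1337, 1901 and 1370 in the cultured libraries, above every sorted one. Between transplanted and resident cells the log2 fold change was -0.04 ± 0.09 (adjusted p = 0.816). Cyba was higher in cultured than resident cells by 1.92 ± 0.14 (3.79-fold, adjusted p = 2.42e-06), and transplanted cells were below cultured cells by a similar amount (-1.95 ± 0.16, adjusted p = 2.65e-06). Cyba has the shortest transcript of the 5, at 744 bases in GENCODE. The size of the cultured difference depended on length: with each library's trend on gene length removed it was 0.38 (adjusted p = 0.00596).

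Ncf1, the organizer, was the member that fell in culture. Resident libraries had 615, 624, 622 and 666 CPM, transplanted libraries 582, 615, 635 and 607 CPM, and cultured libraries 413, 302 and 394 CPM. The sorted groups overlapped, and each cultured library was below each sorted one. Ncf1 was 1.69-fold lower in cultured than resident cells (-0.75 ± 0.13, adjusted p = 0.000613) and 1.66-fold higher in transplanted than cultured cells (0.73 ± 0.13, adjusted p = 0.000745). Between transplanted and resident cells it differed by -0.05 ± 0.06 (adjusted p = 0.671). On the TPM scale, where the median of all genes was -0.95 for cultured minus resident (below), Ncf1 stood at -1.86.

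Ncf4, which binds the lipid of phagosome membranes and stabilises the assembled complex, had the smallest difference between cultured and resident cells. It had 71.4, 70.8, 75.9 and 74.9 CPM in resident libraries, 80.9, 79.8, 89.6 and 76.3 in transplanted libraries and 84.0, 85.9 and 88.5 in cultured libraries. Every transplanted library lay above every resident one, but the margin at the nearest pair was 75.9 to 76.3 CPM and the test was not passed (0.16 ± 0.06, adjusted p = 0.122). In cultured cells Ncf4 was called higher than in resident cells by 0.25 ± 0.09 (adjusted p = 0.0254). That call was lost with upper-quartile scaling (0.087, adjusted p = 0.38), without a filter (0.20, adjusted p = 0.101) and without any 1 library other than cultured replicate 2, and Ncf4 was called lower instead on the TPM scale (-0.76, limma adjusted p = 3.46e-05) and with the length trend removed (-0.25, adjusted p = 0.0244). Cultured and transplanted cells differed by -0.07 ± 0.11 (adjusted p = 0.562), but Ncf4 was called higher in transplanted cells on the TPM scale (0.96, limma adjusted p = 3.3e-05) and with the length trend removed (0.46, adjusted p = 0.00348).

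Rac2, the GTPase that switches the complex on in blood cells, was, like Cyba, higher in culture and not called between the sorted groups. Resident libraries had 152, 154, 155 and 164 CPM, transplanted libraries 137, 152, 159 and 138 CPM, and cultured libraries 759, 611 and 730 CPM. The cultured libraries were well above both sorted groups, which overlapped. Rac2 was 4.53-fold higher in cultured than resident cells (2.18 ± 0.11, adjusted p = 2.47e-07) and 4.75-fold lower in transplanted than cultured cells (-2.25 ± 0.12, adjusted p = 2.21e-07). The transplanted minus resident difference was -0.09 ± 0.07 (adjusted p = 0.432).

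**Figure D2:**
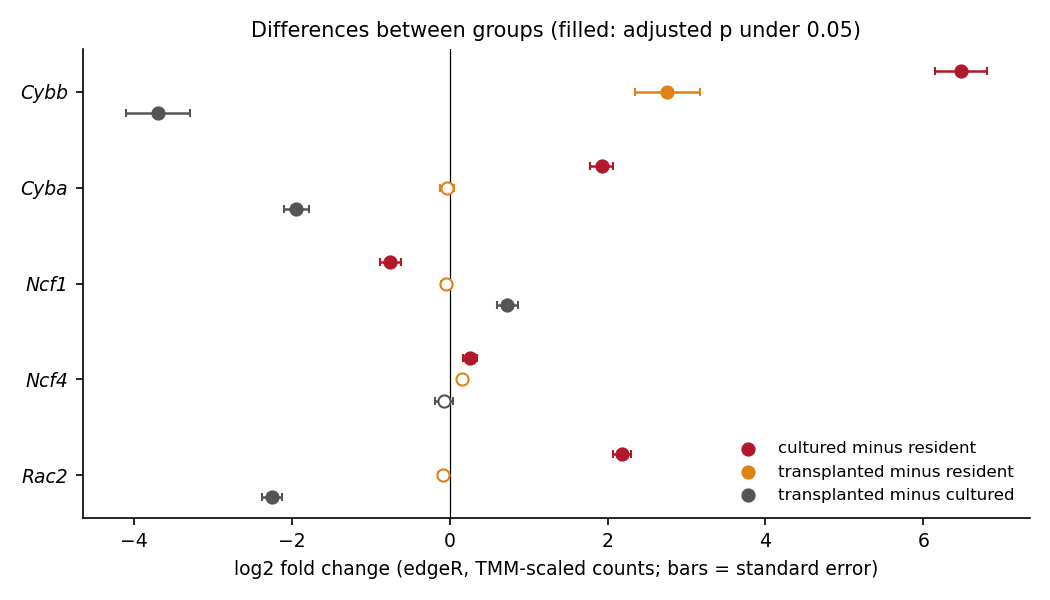
Log2 fold changes (horizontal axis) of the 5 genes in the 3 comparisons, from edgeR on TMM-scaled counts, with standard errors as bars and filled points for adjusted p under 0.05. Cybb alone has a filled point for transplanted minus resident, at 2.76.

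In counts, 4 of the 5 genes were higher and 1 was lower in cultured than resident cells. In that comparison 75.1% of 12406 genes tested were called, 37.9% higher and 37.2% lower, so a call is near the background there. Between transplanted and resident cells 1 of 5 was higher and none was lower, against 13% of 11929 genes called (7.17% higher, 5.86% lower). At an unadjusted p under 0.05 in edgeR, Ncf4 was also higher and still none was lower, and DESeq2 called 1 of 5. Groups did not overlap for Cybb and Ncf4 in that comparison, against 19.7% of all genes, and for all 5 members between cultured and resident cells, against 75.8% of all genes. In transplanted against cultured cells 1 was higher and 3 were lower, against 72.4% called of 12284 genes (36.9% higher, 35.5% lower), and those groups did not overlap for 4 of 5, against 73.3% of all genes.

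The scale mattered for the comparisons with cultured cells. On the deposited TPM values, tested with limma, the median of all genes was -0.95 for cultured minus resident and 0.98 for transplanted minus cultured (log2, pseudocount 1), against -0.02 and 0.05 with TMM-scaled counts. On TPM 1993 genes were called higher and 7830 lower in cultured than resident cells (4704 and 4612 with TMM), and 7755 higher and 1843 lower in transplanted than cultured cells (4530 and 4361 with TMM). Ncf4, at -0.76 for cultured minus resident, lay near the median there. Cybb (5.14), Cyba (0.79), Rac2 (1.07) and Ncf1 (-1.86) kept their sign and their call on TPM. With TPM values centred on each library's median, a setting added after the data were seen, the members stood at 6.16, 1.80, 2.08 and -0.84 in the same order, and Ncf4 at 0.25. For transplanted minus resident the median of all genes on the TPM scale was 0.03.

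**Figure D3:**
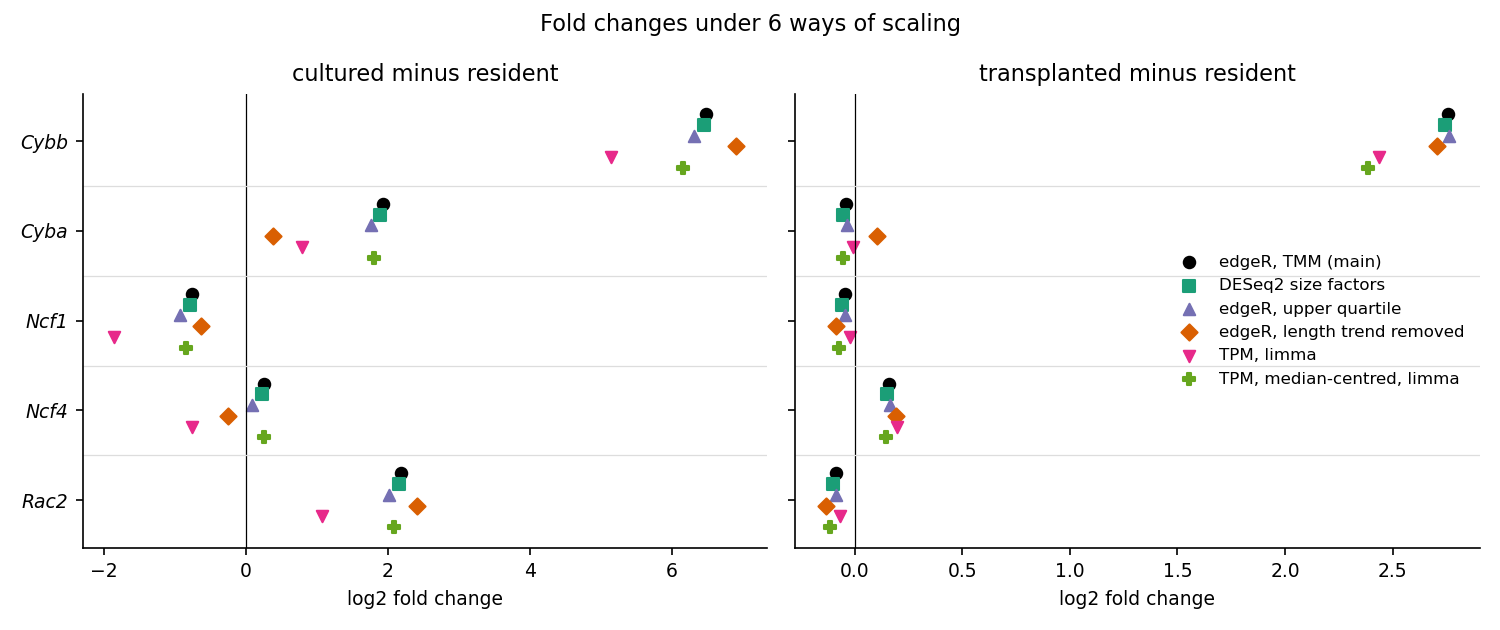
Log2 fold changes (horizontal axis) under 6 ways of scaling, for cultured minus resident (left) and transplanted minus resident (right), 1 symbol per setting and with a separate axis range in each panel. In culture Ncf4 lies on both sides of 0, from -0.76 to 0.25, and for transplanted minus resident Cybb stays at 2.39 or above while no other member passes 0.20.

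Ratios within a library do not depend on how libraries are scaled, and TPM is per gene length, so the subunits can be set against each other. A length trend that differs between libraries stays in such ratios, and they were not recomputed with it removed. That limit bears most on cultured libraries, where removing the trend left Cyba at 0.38 above resident cells (log2, edgeR fit). By TPM, the order within every resident and every transplanted library was Cyba, Ncf1, Ncf4, Rac2, Cybb. In every cultured library it was Cyba, Rac2, Cybb, Ncf1, Ncf4. In the sorted groups Ncf4 and Rac2 were neighbours in level, at 129 ± 4.03 and 118 ± 1.86 TPM in resident cells (SD, n = 4) and 148 ± 14.7 and 113 ± 8.69 TPM in transplanted cells. In culture Rac2 (250 ± 38.9 TPM) and Cybb (203 ± 50.7 TPM, SD, n = 3) overlapped in spread.

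The gap between the membrane partners narrowed most in culture. Cyba exceeded Cybb 514.5-, 266-, 440- and 273-fold by TPM in the resident libraries. The excess was 49.8-, 156-, 40.4- and 31.1-fold in the transplanted libraries and 10.96-, 22.9- and 11.7-fold in the cultured libraries. The 3 groups did not overlap in this ratio. The mean log2 ratio was 2.68 lower in transplanted than resident libraries, a 6.41-fold change (exact two-sided permutation p = 0.0286, the smallest that 4 against 4 can give; adjusted p = 0.0605 over 18 ratio tests). It was 25-fold lower in cultured than resident libraries. For 3 against 4 libraries the exact two-sided permutation test as run could not go below p = 0.0571. That limit depends on how the tails are combined, and a p-value on the absolute difference was not computed. After adjustment none of the ratio differences passed 0.05, and with the smallest p-values of the test as run none could have. The adjusted p-values rest on the same way of combining tails.

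The cytosolic members changed against Cybb in the same direction. Ncf1 exceeded Cybb 85.3- to 182-fold in resident libraries and 10.4- to 46.1-fold in transplanted ones, but stood at 0.708 to 0.79 of it in cultured libraries. Ncf4 was at 20.1 to 43.6 times Cybb in resident, 2.79 to 12.2 times in transplanted and 0.321 to 0.495 times in cultured libraries. Rac2 was at 18.7 to 39.9 times Cybb in resident, 2.10 to 10.1 times in transplanted and 1.17 to 1.42 times in cultured libraries. In each of these ratios the 3 groups did not overlap, and all 3 share the Cybb value, so they are not separate evidence. Each had an exact permutation p of 0.0286 for transplanted against resident libraries (adjusted p = 0.0605).

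Members other than Cybb moved less against each other between the sorted groups. Ncf4 to Ncf1 was 0.23 to 0.254 in resident, 0.265 to 0.301 in transplanted and 0.443 to 0.627 in cultured libraries. The transplanted libraries were thus 1.17-fold higher than the resident ones in this ratio (exact permutation p = 0.0286, adjusted p = 0.0605). Rac2 to Rac1, its ubiquitous relative, was 0.192 to 0.25 in resident libraries and 0.184 to 0.362 in transplanted ones, which overlapped (exact permutation p = 0.743). In cultured libraries it was 2.45, 0.783 and 0.629, a wide spread that came with Rac1 itself at 225, 569 and 845 CPM in replicates 1 to 3.

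**Figure D4:**
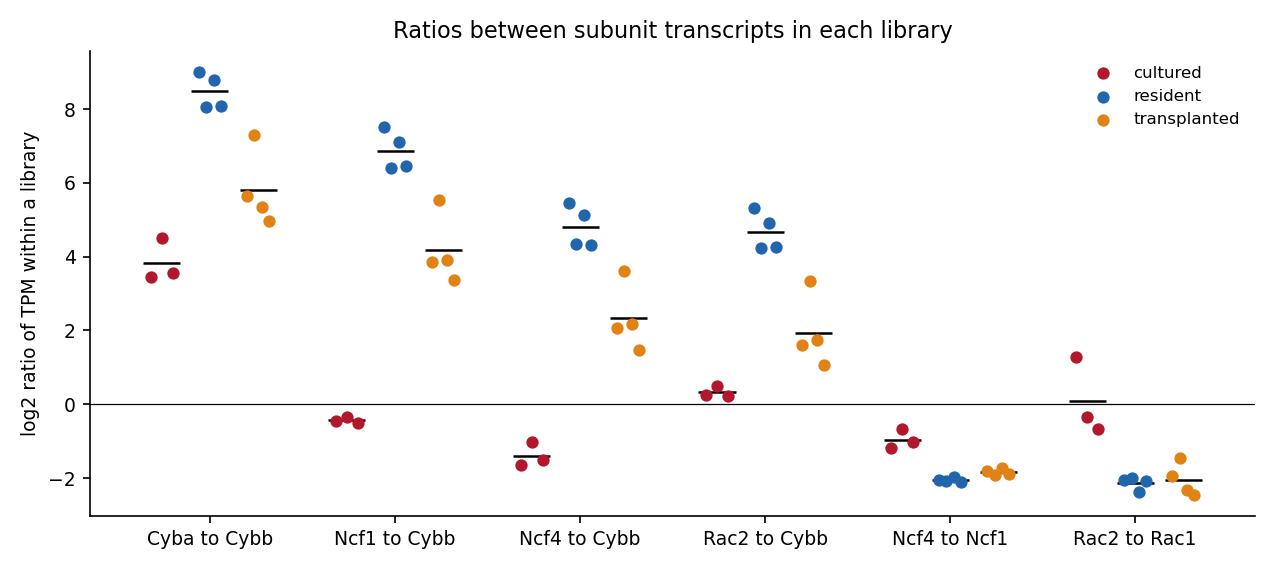
Within-library log2 ratio of TPM (vertical axis) for 6 pairs of transcripts, with a point per library and a line for the group mean. In the 4 ratios to Cybb the resident points lie highest and the cultured points lowest with no overlap, and transplanted replicate 2 is the highest transplanted point.

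Other parts of the machinery were read from a list of 12 partners, of which 11 were in the table and tested. Like the lists that follow, it was chosen with earlier results of these data known. For this list and those that follow, the background is the share of all genes called. It was 37.9% higher and 37.2% lower in cultured than resident cells, and 7.17% and 5.86% in transplanted than resident cells. Counts near these shares say little of a list. Between transplanted and resident cells 1 was higher and none lower, with a median log2 fold change of -0.05 (0.02 over all genes). The called gene was Lcp1, which encodes the actin bundler L-plastin (0.27 ± 0.07, adjusted p = 0.02), a call lost with all 3 groups in 1 fit (adjusted p = 0.457) and with the replicate block (adjusted p = 0.0538). Cybc1, the chaperone that gp91phox and p22phox need to mature, had 302 ± 32.1 and 300 ± 40.2 CPM (SD, n = 4 each), a log2 fold change of -0.01 ± 0.11 (adjusted p = 0.98).

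In culture the partners split, with 5 higher, 5 lower and a median of 0.15 (-0.02 over all genes). On the TPM scale the split was 1 higher and 9 lower, with a median of -1.14. Cybc1 was at 67.0, 52.5 and 68.7 CPM in cultured libraries, which is 4.75-fold below resident cells (-2.25 ± 0.15, adjusted p = 1.09e-06), while Cybb, whose product it matures, was at its highest there. The proton channel Hvcn1, which offsets the charge the oxidase moves, was lower (-0.95 ± 0.22, adjusted p = 0.00376), as was Coro1a (-0.75 ± 0.10), whose product binds p40phox. Nrros, a negative regulator of gp91phox, was lower (-0.59 ± 0.16, adjusted p = 0.00735; -0.30, adjusted p = 0.0532, with the length trend removed). The GTPase gene Rap1b was higher (1.66 ± 0.13, and 0.53 on the TPM scale).

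Of 13 genes that control Rac, 12 were tested between transplanted and resident cells, with 1 higher, none lower and a median of -0.06. The called one was Arhgap15, which encodes a Rac GTPase-activating protein (1.03 ± 0.09, adjusted p = 6.02e-05). Of the 10 listed pathway genes called between the sorted groups, it was the 1 that kept its call with all 3 groups in 1 fit (adjusted p = 7.04e-05). In culture 5 of 13 were higher and 6 lower, at a median of -0.28 (2 higher and 10 lower on the TPM scale). The exchange factor Vav1 was lower (-1.26 ± 0.17, adjusted p = 0.000141), as was Elmo1, the partner of the Dock exchange factors (-3.76 ± 0.25, adjusted p = 1.33e-06). Arhgdib, which holds Rac inactive in the cytosol, was higher (1.52 ± 0.11, adjusted p = 2.35e-06). Vav3 had no count in transplanted cells, which was at least 332-fold below the cultured 11.7 ± 5.77 CPM (3 counts over the group).

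Of 14 upstream kinases and lipases, 2 were higher and 1 lower in transplanted than resident cells, with a median of 0.03. Pla2g4a, the phospholipase that supplies arachidonic acid, was higher by 0.39 ± 0.11 (adjusted p = 0.0434; adjusted p = 0.0568 on the TPM scale). The lipid kinase gene Pik3c3 was higher by 0.32 ± 0.08 (adjusted p = 0.0246; 0.04, adjusted p = 0.759, on the TPM scale). The kinase gene Prkca was lower (-0.54 ± 0.09, adjusted p = 0.00374). With all 3 groups in 1 fit none of the 3 was called (adjusted p = 0.24, 0.148 and 0.174 in that order). In culture none was higher and 9 were lower (median -0.51), among them Pik3r5 (-2.35 ± 0.22) and Pik3cg (-1.73 ± 0.17), which form a phosphoinositide 3-kinase. With the length trend removed, 2 were higher and 7 lower.

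Genes of the supply of NADPH, the electron donor, were higher in culture: 7 of 7 were called, against 37.9% of all genes, with a median of 2.16. Examples were Idh1 (3.91 ± 0.18, adjusted p = 1.31e-07), Taldo1 (2.66 ± 0.10) and the first enzyme of the pentose phosphate pathway, G6pdx (1.14 ± 0.26, adjusted p = 0.0028). On the TPM scale 5 of 6 tested were higher and G6pdx stood at -0.06 (adjusted p = 0.849). Between transplanted and resident cells 6 were tested and Pgd alone was called, higher by 0.29 ± 0.07 (adjusted p = 0.0279; adjusted p = 0.092 with all 3 groups in 1 fit). Genes that remove superoxide and peroxide behaved alike in culture, with 7 of 8 tested higher and a median of 2.71, as in Sod2, the mitochondrial dismutase (2.74 ± 0.10), and Prdx5 (3.94 ± 0.15). In transplanted against resident cells 3 of 8 were lower, namely Cat (-0.33 ± 0.06, adjusted p = 0.00687), Prdx2 (-0.31 ± 0.08, adjusted p = 0.0277) and Sod1 (-0.39 ± 0.11, adjusted p = 0.0416; adjusted p = 0.186 with the length trend removed), and none was higher. With all 3 groups in 1 fit none of these 3 was called (adjusted p = 0.306, 0.199 and 0.281).

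Of 9 myeloid transcription factor genes, 8 were tested. Spi1, which encodes PU.1, differed by -0.16 ± 0.13 between transplanted and resident cells (adjusted p = 0.452) and by 0.06 ± 0.32 between cultured and resident cells (adjusted p = 0.881). On the TPM scale the latter was -1.21 (adjusted p = 0.00911). Cultured Spi1 was uneven, at 175, 397 and 585 CPM. Irf8 differed by 0.02 ± 0.08 and -0.15 ± 0.10, neither called. Irf1 was called in both, higher in transplanted (0.28 ± 0.07, adjusted p = 0.031) and lower in cultured cells (-1.64 ± 0.10, adjusted p = 5.80e-07) than in resident cells. The former call was lost with the replicate block (adjusted p = 0.0542), with all 3 groups in 1 fit (adjusted p = 0.0726) and on median-centred TPM (adjusted p = 0.0551). In transplanted against resident cells it was the 1 factor called, and in culture 3 were higher and 2 lower (median -0.03; 1 higher and 5 lower on the TPM scale).

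Transcripts of other NADPH oxidases were nearly absent from the table's values. Of 7 such genes listed, 5 had rows, and Duoxa1, a maturation factor for the dual oxidases, was the 1 that passed the filter. It had 7.10 ± 1.72 CPM in resident and 5.09 ± 2.21 CPM in transplanted cells (SD, n = 4 each), which did not differ by the test (-0.47 ± 0.32, adjusted p = 0.37). It had no count in cultured cells, at least 146-fold below resident cells (3 counts over the group).

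**Figure D5:**
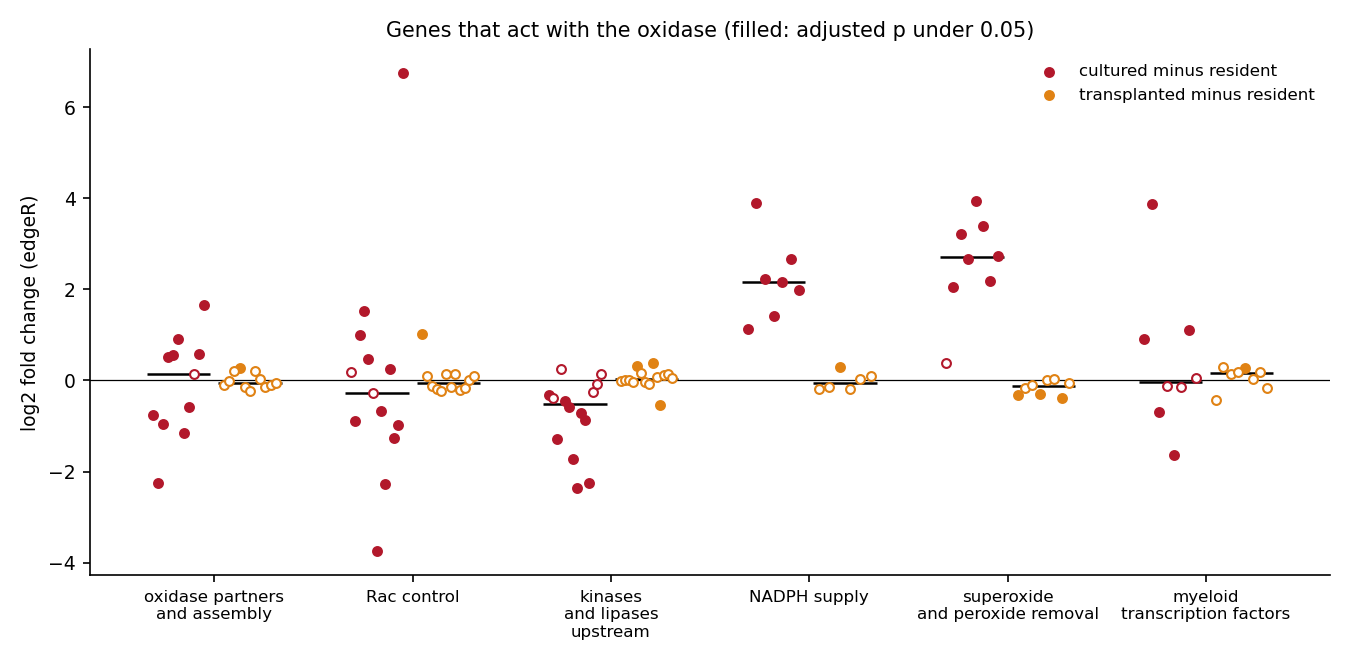
Log2 fold changes from edgeR (vertical axis) of the tested genes in 6 lists of genes that act with the oxidase, for cultured minus resident and transplanted minus resident, with a line at each median and filled points for adjusted p under 0.05. The transplanted minus resident medians lie between -0.13 and 0.16, while in culture the NADPH supply median is 2.16 and the median of genes that remove superoxide and peroxide is 2.71.

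Genes with the most similar profiles were ranked by the root mean square difference between centred log2 CPM values over the 11 libraries, among 12590 genes. Closest to Cybb were the integrin gene Itgal (0.413), Apoe, which encodes a lipid carrier (0.429), and Aoah, whose enzyme inactivates bacterial lipopolysaccharide (0.464). Itgal averaged 0.648, 8.24 and 87.2 CPM in resident, transplanted and cultured cells, and Aoah 1.498, 8.75 and 70.5 CPM. Apoe averaged 537, 5577 and 85940 CPM. Their order of levels restates how they were chosen.

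The other members had different neighbours in profile, at smaller root mean square differences, but this measure tends to be smaller for genes that vary less. Nearest to Cyba were Mrps16 (0.0742), Tomm5 and Ndufs4, all of which encode mitochondrial proteins. Nearest to Rac2 were Cmpk1 (0.0849), Cers6 and Got1, and nearest to Ncf1 were Mtr (0.0746), Aasdhppt and Strada. Nearest to Ncf4 were Ddost (0.0741), Gtf2h4 and Zzef1. Pearson correlations with the member were 0.991 to 0.995 for the Cybb neighbours, 0.994 to 0.996 for Cyba and 0.996 to 0.997 for Rac2. They were 0.978 to 0.979 for Ncf1 and 0.74 to 0.778 for Ncf4.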

How the data were processed

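One table with expected read counts, TPM and FPKM per gene for the 11 libraries was deposited, per the file headers. The deposited expected counts are the authors' estimates before any scaling to depth. The deposited TPM and FPKM values were scaled by the authors to gene length and library, per the file headers. HISAT, Bowtie2 and GRCm38.p6 appear in the submitters' processing notes. The sources used here do not give the read counter, annotation, filters or strand setting. RNA came from TRIzol extracts, with 1 ng per Smart-Seq library, per the labels' protocols. Symbols came from RefSeq (GRCm38.p6), which matched 16845 of 16894 Entrez identifiers, and the other 49 stayed in the tests.

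Libraries were grouped by title. For each comparison, the rounded expected counts of its 2 groups entered edgeR 4.0.16 (R 4.3.3) with TMM scaling, filterByExpr and quasi-likelihood tests. Calls were made under 0.05 after Benjamini-Hochberg adjustment, always across the full set of tested genes. CPM levels use TMM factors computed once for the 11 libraries. TPM values entered limma 3.58.1 as log2(TPM + 1), or + 0.1, for genes with at least 1 TPM in as many libraries as the smaller group. Ratios of TPM were compared by exact two-sided permutation tests, 18 in all, with FPKM as an alternative. DESeq2 1.42.0, upper-quartile scaling, no filter, a fit of all groups, a replicate block, removal of each library's length trend and leaving out each library were further alternatives. The tests were tried on simulated data. In these few genes changed and no length trend was set, unlike in the comparisons with cultured cells. Libraries carry no molecular identifiers that the labels mention, so the limit for 0 counts covers counting error only.

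Named were all members, genes of 7 pathway lists, the 3 genes closest in profile to each member, and genes that overlap or flank a member. Members, lists and tests were chosen with earlier results of these data known. Other cell types were read from 9 marker lists. Some genes of these lists are not reported here.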

Additional observations from a re-analysis of the deposited data

How the results depend on the processing

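The members' fold changes were recomputed in 245 alternatives, of which 228 kept direction and side of the threshold, 9 lost the call and 8 turned in sign. Every loss was of Ncf4, cultured minus resident. The 168 alternatives of ratio differences were judged by size and not by a test. All 168 stayed within the pooled SD between libraries of the main difference, which is a loose rule. Leaving out 1 library cannot move a difference past that SD, and FPKM gives the same within-library ratios as TPM. Only the alternatives with 1 added to each TPM could have failed the rule. None of them removed the length trend. Members called in culture went from 4 higher and 1 lower to 3 and 1 (upper quartile, no filter, block) or 3 and 2 (TPM, length trend removed), and in transplanted against cultured cells from 1 and 3 to 2 and 3 (TPM, length trend removed). The Ncf4 difference between cultured and resident cells lost its call with upper-quartile scaling (0.087), no filter (0.20) and the replicate block (0.26), and at 0.20 to 0.24 with 1 library left out (6 of 7 libraries). It turned to -0.76 on TPM with pseudocount 1, -0.77 with 0.1 and -0.25 with the length trend removed, each called lower. Transplanted minus cultured Ncf4, not called at -0.07, turned to 0.073 with upper-quartile scaling, not called, and to 0.96 and 0.97 on TPM and 0.46 with the length trend removed, each called higher. Cyba, transplanted minus resident, not called, turned from -0.04 to 0.10 with the length trend removed. The causes were not tested. Between transplanted and cultured cells Cyba stood at -0.30 with the length trend removed (-1.95 without). Groups share replicate numbers, but same-numbered libraries did not deviate together (correlations of deviations -0.0687 to 0.0537), and not every library correlated best with its own number. With the block, 707 genes were higher and 592 lower in transplanted than resident cells. Among listed pathway genes the block kept 8 of 10 calls there, and 1 fit of all groups kept 1 of 10. The block changed no other member's call, and Cybb, transplanted minus resident, stood at 2.67 with it (adjusted p = 0.00518). Over all genes, 507 were higher and 405 lower in transplanted than resident cells when all groups shared 1 fit, against 855 and 699 in the pairwise fit. Depth limits Cybb most in resident cells, at 136 to 304 counts a library.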

Other observations

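The nearest genes on the chromosome differed in which comparisons called them. Next to Ncf4, 19925 bases on, lies Csf2rb2, which encodes an interleukin-3 receptor chain. It averaged 104, 163 and 386 CPM in resident, transplanted and cultured cells, and was higher than in resident cells in transplanted (0.66, adjusted p = 0.0178, edgeR) and cultured cells (1.92, adjusted p = 5.72e-07). Mvd, a cholesterol synthesis gene 656 bases from Cyba, averaged 12.1, 12.1 and 70.3 CPM in the same order, with a transplanted minus resident difference of 0.00 (adjusted p = 0.984). The nearest measured genes around Cybb, Xk and Dynlt3, lie 122007 and 166504 bases away. Neither differed by the test between transplanted and resident cells (0.08 and -0.02), and in culture Xk was lower (-4.00) and Dynlt3 higher (1.68). Cyth4, 24264 bases from Rac2, was lower in culture (-1.43, adjusted p = 5.68e-05), where Rac2 was higher. Gtf2ird2, 1907 bases from Ncf1, was lower in culture (-1.56, adjusted p = 7.80e-05), as Ncf1 was. Gtf2i, 8204 bases from Ncf1 on its other side, was not called in culture (-0.28, adjusted p = 0.201). Ift27, 70083 bases from Ncf4, was higher in culture (1.51, adjusted p = 3.33e-05). In culture 75.1% of all genes tested were called, so a called neighbour is near the background there.

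The Y-linked genes Kdm5d and Eif2s3y differed among transplanted libraries as Ddx3y did. Kdm5d was at 9.65, 6.41, 23.4 and 24.6 CPM and Eif2s3y at 16.4, 13.6, 50.1 and 48.3 CPM in replicates 1 to 4. In resident replicate 4 both were at 0, while Uty was at 21.2 CPM.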
